A study of Homo sapiens with 14 samples.

Results

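The genes described are the protein-coding genes with a ZNF symbol whose body overlaps a 5-Mb window of chromosome 19 (GRCh37, chr19:19500000-24500000), which takes in band 19p12. They number 37 of the 63677 gene IDs in each bulk gene table, and 37 of the 509 protein-coding ZNF genes that could be placed on GRCh37. No measured value was used to choose them. In order along the chromosome they run from ZNF101 and ZNF14, which lie in the neighbouring band, through a row of ZNF genes from ZNF506 to ZNF254.

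Most genes of this array encode Krüppel-associated box (KRAB) zinc finger proteins, in which a row of C2H2 zinc fingers reads a DNA sequence and the KRAB domain recruits TRIM28 (KAP1). TRIM28 in turn brings the H3K9 methyltransferase SETDB1, heterochromatin proteins and histone deacetylases, and many of the sequences recognised are transposable elements (TEs). The family grew through tandem duplication, so that neighbours resemble each other, and the 19p12 array is largely primate-specific. ZNF91 is known to bind and repress SVA elements and ZNF93 to bind L1PA elements.

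The 12 bulk RNA-seq libraries come from the human embryonic stem cell line H9 and its derivatives, and nuclei of 1 gastruloid preparation were profiled for both RNA and chromatin accessibility. The 2 hESC libraries are undifferentiated cells. The 3 DE_ctl libraries are endodermal cells that carry dCAS9-KRAB, a catalytically dead nuclease fused to a KRAB repressor, without an sgRNA, and the 3 DE_CRISPRi libraries carry dCAS9-KRAB together with an sgRNA against LTR5. Both were made from H9 cells transduced with lentivirus and selected as a population, by 3 days with 100 ng/ml Activin A and 5 and then 0.5 µM CHIR-99021. The 2 FG_ctl and 2 FG_CRISPRi libraries are foregut cells, after a further 3 days of differentiation, without and with the sgRNA. Their titles give these groups, while their status labels name hESC for FG_ctl and endoderm without sgRNA for FG_CRISPRi, so the foregut groups rest on the titles, and whether FG_ctl carries dCAS9-KRAB is not given in the labels. No dCAS9-KRAB is described for the hESC group, and differentiation and the transgene cannot be told apart between hESC and DE_ctl. The gastruloids, elongating aggregates that model the trunk of the early embryo, were grown from 800 H9 cells per well after 3 µM CHIR-99021 and harvested at 72 h. The study's methods describe its RNA-seq replicates as biologically independent, without saying whether each was a separate differentiation.

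The libraries held 11583063 to 37152434 reads in genes, 8.30 to 34.7% of them mitochondrial. The 4 foregut libraries stood apart in their low counts: 82 to 124 protein-coding genes had 1 to 3 reads there, against 1087 to 1465 in the other 8, and their part in the results was not tested. Endoderm markers separated DE_ctl from hESC (9 of 9 higher, among them SOX17, which had no hESC read). Of 7 pluripotency markers, 3 were called lower and 1 higher in DE_ctl. Their summed level overlapped, at 1752 to 2533 CPM (counts per 1e6 gene reads) in hESC and 1882 to 2527 in DE_ctl. Among 7 foregut markers, 4 were higher in FG_ctl than in DE_ctl. The first endoderm control library also stood apart for the genes described here. Its summed level was 456.6 CPM (counts per 1e6 gene reads, after TMM scaling) against 285.6 and 292.4 in the other 2. The first DE_CRISPRi library was low instead, at 226.1 CPM against 340.3 and 340.6 in the others of its group.

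The first question was where along the array the genes were transcribed. Of the 37 genes, 27 had reads in at least 1 of the 8 hESC and endoderm libraries, and 9 (24.3%) had no read in any of the 12. The silent genes were ZNF208, ZNF257, ZNF676, ZNF729, ZNF98, ZNF492, ZNF99, ZNF723 and ZNF726. The first 8 of these are neighbours. The next gene in the row, ZNF728, had 12 reads in the second FG_ctl library (0.308 CPM) and none elsewhere. A count of 0 is taken to allow up to 3 reads per library, which is 0.0770 to 0.252 CPM here. In the foregut libraries, where low counts were rare, a 0 may stand for more. Genes with no read made up 13.3% of 19488 protein-coding genes, 5.13% of the 39 ZNF genes of 19q13.41 (from ZNF611 to ZNF816 with 1 Mb on each side), 1.75% of the 171 on the rest of chromosome 19 and 6.11% of the 262 on other chromosomes. The plot of levels in gene order shows the row of 0 reads between ZNF43 and ZNF730.

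The stretch from ZNF208 to ZNF728, whose limits were set after the values were seen, was then compared with the array on either side. Its 1.07 Mb (chr19:22115760-23185978) held 1417 TE integrants, of which 11 (0.776%) had any uniquely mapped read, with 36 reads in all 12 libraries together. From ZNF506 to ZNF43, 446 of 3537 integrants (12.6%) had a read, and from ZNF730 to ZNF254, 197 of 1574 (12.5%). Reads in integrants came to 33.6 per Mb in the middle stretch, against 8983 and 6634 per Mb on either side. Annotated genes other than these ZNF genes had reads in 3 of 42 cases in the middle stretch (64 reads), in 20 of 75 cases before it (2565 reads) and in 8 of 27 cases after it (8133 reads). The middle stretch was thus low in TE reads and other transcripts, besides the ZNF reads that set its limits. TE counts include integrants within genes and exons, so they are not independent of the gene reads. How much of each stretch can be mapped uniquely was not compared.

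Accessible peaks of the gastruloid nuclei, on GRCh38, followed the same division. No peak lay within the 1.06 Mb from ZNF208 to ZNF728. There were 60 peaks from ZNF506 to ZNF43 (29.1 per Mb) and 25 from ZNF730 to ZNF254 (23.7 per Mb). The stretch without a peak was 1.22 Mb long (chr19:21852483-23074873), the second longest between neighbouring peaks of chromosome 19. The longest, of 3.66 Mb, crosses the centromere, and the next after these measured 0.709 Mb. Peaks were called on all nuclei together, so that an opening in few nuclei could be missed.

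The start of a gene could be matched to RefSeq (GRCh38.p14) for 29 of the 37 genes. Of these, 24 (82.8%) had a peak over the 250 bases before to 50 bases after the start, and the 5 without one were ZNF208, ZNF257, ZNF492, ZNF723 and ZNF726, all genes with no bulk read. The share with a peak was 87.5% for ZNF genes of 19q13.41, 92.3% for the rest of chromosome 19 and 72.7% for 15843 protein-coding genes.

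Promoter sequences were at hand for 24 genes with reads and for 5 of the 9 without, and their likeness was not measured. Below are the 250 bases before the start of ZNF93, ZNF90 and ZNF730, which had reads, and of ZNF208 and ZNF257, which had none, on the strand of each gene in GRCh38.p14, with CCAAT in capitals. CCAAT is the box bound by the factor NF-Y at many promoters, and is shown because it recurred throughout the array.
ZNF93 (chr19:19900696-19900945, plus strand): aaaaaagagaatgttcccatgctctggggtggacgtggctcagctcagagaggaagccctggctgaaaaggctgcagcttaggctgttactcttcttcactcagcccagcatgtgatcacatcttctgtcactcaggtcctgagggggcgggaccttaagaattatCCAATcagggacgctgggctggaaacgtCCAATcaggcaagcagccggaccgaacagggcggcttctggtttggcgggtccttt
ZNF90 (chr19:20077750-20077999, plus strand): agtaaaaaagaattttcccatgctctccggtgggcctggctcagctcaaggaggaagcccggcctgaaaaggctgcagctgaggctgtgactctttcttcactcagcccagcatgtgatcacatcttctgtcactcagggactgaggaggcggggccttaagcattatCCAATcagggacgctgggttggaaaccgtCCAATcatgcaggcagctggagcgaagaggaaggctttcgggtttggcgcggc
ZNF730 (chr19:23116775-23117024, plus strand): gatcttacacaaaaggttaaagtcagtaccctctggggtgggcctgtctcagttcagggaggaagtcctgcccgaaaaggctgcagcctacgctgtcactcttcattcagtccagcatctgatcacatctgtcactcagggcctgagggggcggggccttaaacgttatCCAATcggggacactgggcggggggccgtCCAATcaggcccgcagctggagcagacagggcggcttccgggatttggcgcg
ZNF208 (chr19:22010944-22011193, minus strand): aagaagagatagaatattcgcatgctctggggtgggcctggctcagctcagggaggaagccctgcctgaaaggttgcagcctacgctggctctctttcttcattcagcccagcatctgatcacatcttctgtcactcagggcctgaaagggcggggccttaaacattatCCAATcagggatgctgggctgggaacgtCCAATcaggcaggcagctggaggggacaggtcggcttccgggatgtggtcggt
ZNF257 (chr19:22052234-22052483, plus strand): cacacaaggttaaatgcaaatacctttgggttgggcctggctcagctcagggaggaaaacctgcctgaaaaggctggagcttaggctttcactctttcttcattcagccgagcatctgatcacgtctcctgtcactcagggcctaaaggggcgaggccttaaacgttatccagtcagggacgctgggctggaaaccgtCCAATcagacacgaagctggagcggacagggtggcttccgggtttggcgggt
Searched as CCAAT on either strand, the box was present in 29 of 29 matched promoters, 24 of genes with reads and 5 of genes without. It occurred in 34.5% of 15843 protein-coding promoters of the same length, in 25% of those of 19q13.41 ZNF genes and in 47.7% of those of ZNF genes on the rest of chromosome 19. At least 2 boxes were found in 75% of the promoters with reads and 40% of those without, against 11.6% of all. CpG dinucleotides were few, with a median of 8 in genes with reads and 10 in genes without, against 17 over all promoters and 18.5 in 19q13.41. The promoters are related by duplication and are not independent, and a match is no proof of binding.

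The second comparison concerned levels in hESC and in the derivatives. On the scale of reads per kb of exon and per 1e6 gene reads, the highest hESC levels were those of ZNF253 (10.7), ZNF93 (9.23) and ZNF85 (5.23). The lowest among genes with reads were those of ZNF506 (0.0260), ZNF66 (0.219) and ZNF429 (0.559). The median over the 27 genes with reads was 2.25 in hESC, 1.76 in DE_ctl, 1.51 in DE_CRISPRi, 0.913 in FG_ctl (28 genes) and 0.872 in FG_CRISPRi (25 genes). Counts are of uniquely mapped reads, so reads from stretches that paralogs share are not counted, and levels compared between genes depend on how much of each is unique. In bulk samples, fewer cells of a type and less RNA per cell cannot be told apart.

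Between hESC and DE_ctl, 4 genes of the array fell and 1 rose, out of 27 tested. ZNF493, ZNF253, ZNF100 and ZNF93 were the genes that fell and ZNF737 the gene that rose. Among all 20818 genes tested, 14.2% were called higher and 11.8% lower by the same rule (fold change above 2 with an adjusted p below 0.05), against 1 higher and 4 lower of the 27. The median log2 fold change was -0.39, against 0.04 over all genes tested, and came to -0.09 without the second hESC library. By the adjusted p alone, 9 genes were lower and 1 higher (18.3% and 19.6% of all genes), and by an unadjusted p under 0.05, 10 were lower and 1 higher (22.3% and 23.8% of all).

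ZNF493 had 16.3 and 16.8 CPM in hESC, and 5.13, 2.86 and 3.44 in DE_ctl. The groups were well apart, and the log2 fold change was -2.09 (SE 0.27, edgeR adjusted p = 2.3e-05). ZNF253 had 40.4 and 37.1 CPM in hESC and 21.4, 13.7 and 12.9 in DE_ctl, a log2 fold change of -1.25 (SE 0.23, edgeR adjusted p = 0.000542). ZNF93, the binder of L1PA elements, had 54.7 and 48.3 CPM in hESC and 26.1, 21.9 and 26.6 in DE_ctl, with no overlap and little spread. Its log2 fold change was -1.02 (SE 0.19, edgeR adjusted p = 0.000645), just beyond the fold limit, and was -0.94 without the second DE_ctl library and -0.93 without the first hESC library. ZNF100 had 23.0 and 20.2 CPM in hESC and 14.9, 7.87 and 7.75 in DE_ctl (log2 fold change -1.05, SE 0.28, edgeR adjusted p = 0.00670). Its call was lost without the second (-0.90) or last (-0.91) DE_ctl library, without either hESC library (adjusted p = 0.114 and 0.0574), with the replicate number as a block (-0.96) and with all 12 libraries in 1 fit (adjusted p = 0.0819). ZNF85 had 24.7 and 24.1 CPM in hESC and 16.9, 8.01 and 11.5 in DE_ctl, below the fold limit (log2 fold change -0.97, SE 0.27, edgeR adjusted p = 0.00922). It passed that limit with the replicate block (-1.04), under limma voom (-1.05) and with all 12 libraries in 1 fit (-1.01). ZNF737 moved the other way, from 4.80 and 7.65 CPM in hESC to 22, 16.4 and 17.3 in DE_ctl (log2 fold change 1.61, SE 0.27, edgeR adjusted p = 0.000205).

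The number of calls rested in part on single libraries. Without the first DE_ctl library, the one with the high summed level, 9 genes were called in place of 5, ZNF85 among them (log2 fold change -1.29). It was 3 without the second DE_ctl library or without the first hESC library. Genes listed as mesoderm markers moved as well, since 6 of 7 were higher in DE_ctl (summed 73.2 to 76.0 CPM in hESC, with 1 gene at 0, and 808.7 to 1379 in DE_ctl). The largest part of that sum was MIXL1, at 828.4 ± 169 CPM in DE_ctl. The list does not show that another cell type was present, and its part in the ZNF values was not tested. ZNF91, the binder of SVA elements, had 18.1 and 22.1 CPM in hESC and 17.6, 10.9 and 10.9 in DE_ctl. The groups were close, and the difference did not pass (log2 fold change -0.58, SE 0.25, edgeR adjusted p = 0.0787).

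ZNF genes elsewhere gave other counts in the same fit. Of 37 tested in 19q13.41, 6 were called higher and 1 lower, and of 165 on the rest of chromosome 19, 17 higher and 13 lower. The difference between these lists was not tested.

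In foregut without the sgRNA, 8 genes were lower than in endoderm without it and 1 was higher, of 28 tested. Over 21466 genes tested, 15.0% were lower and 14.1% higher, and the members' median log2 fold change was -0.61 against -0.09 over all genes. This comparison shares its DE_ctl libraries with the one before. ZNF93 was lower again, at 6.27 and 4.21 CPM against 21.9 to 26.6 in DE_ctl (log2 fold change -2.25, SE 0.30, edgeR adjusted p = 0.000575). Mean levels of ZNF93 thus stood in the order hESC (51.5 ± 4.51 CPM, SD, n = 2), DE_ctl (24.8 ± 2.58, n = 3) and FG_ctl (5.24 ± 1.46, n = 2), with no overlap between neighbours. ZNF430 had 0.942 and 0.898 CPM in FG_ctl and 8.67, 4.42 and 4.06 in DE_ctl (log2 fold change -2.63, SE 0.50, edgeR adjusted p = 0.0034).

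ZNF506 was the exception, with few reads in the hESC and endoderm libraries and more in those of foregut. It had 6.56 and 3.51 CPM in FG_ctl and 0.0997, 0.184 and 0.0625 in DE_ctl (log2 fold change 5.34, SE 0.62, edgeR adjusted p = 0.000266). In hESC it had 0.0432 and 0.452 CPM, and in FG_CRISPRi 1.52 and 5.46, so that the 4 foregut libraries were above the 8 others. The remaining genes called lower were ZNF724 (log2 fold change -4.22), ZNF730 (-2.21), ZNF675 (-1.92), ZNF90 (-1.68), ZNF737 (-1.46) and ZNF486 (-1.10). ZNF724 had 20 reads in 1 FG_ctl library and 0 in the other, and its log2 fold change ranged from -10.16 without the first FG_ctl library to -3.10 without the second, with an adjusted p of 0.0743 without the first DE_ctl library. ZNF91 stayed close, at 13.2 and 11.7 CPM in FG_ctl (log2 fold change -0.08, SE 0.31, edgeR adjusted p = 0.854, with values from -0.19 to 0.23 over the alternatives).

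Foregut and endoderm libraries also differed in genes listed as markers of other cell types, since 3 of 4 extraembryonic markers were higher in FG_ctl. Their summed level was 3.54 to 7.5 CPM in DE_ctl and 93.2 to 120.4 CPM in FG_ctl, with none at 0 in either group. Of 7 mesoderm markers 6 were lower in FG_ctl (summed 808.7 to 1379 CPM in DE_ctl and 76.5 to 82.3 in FG_ctl). Whether such cells were present was not tested, nor was the part of these genes in the ZNF values. The tissues differ in label and in the distribution of low counts, and stage and library preparation cannot be told apart.

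The third comparison addressed the sgRNA against LTR5, and so began with the distance of each gene to an LTR5_Hs or LTR5B copy. LTR5_Hs and LTR5B are long terminal repeats of HERVK proviruses. The window held 18 such copies, 12 LTR5_Hs and 6 LTR5B, or 3.6 per Mb. The genome as a whole had 0.323 per Mb, chromosome 19 had 2.18 and the 19q13.41 cluster 20.8, where 36 of 47 copies were LTR5B. Of the 37 genes, 19 (51.4%) lay within 100 kb of a copy, at a median distance of 74.6 kb, while 92.3% did so in 19q13.41 (median 1.26 kb), 51.5% of ZNF genes on the rest of chromosome 19 and 14.9% of those on other chromosomes. Only ZNF93, ZNF90 and ZNF730 held a copy within the gene body as placed by GENCODE. The copy in ZNF90 begins 4348 bases, and that in ZNF730 2534 bases, after the GENCODE start of the gene, both LTR5_Hs. ZNF93 holds 2 LTR5B copies, the nearer one 54590 bases from its start, beyond the 35-kb body of ZNF93 in RefSeq. On GRCh38 ZNF730 starts at chr19:23075211, while its promoter printed above begins at 23116775, so the copy lies before that promoter. The start of ZNF729 lies 1938 bases from an LTR5_Hs copy, that of ZNF675 5468 and that of ZNF486 9914. The other genes within 100 kb are ZNF253, ZNF682, ZNF737, ZNF85, ZNF430, ZNF429, ZNF676, ZNF98, ZNF492, ZNF728, ZNF724, ZNF91 and ZNF681, of which ZNF676, ZNF98, ZNF492 and ZNF728 are in the silent stretch.

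The copies themselves were barely read. The 18 copies had 8 uniquely mapped reads in the 12 libraries together, never more than 2 in a library, so none could be tested. The cause of the low counts was not tested. Which of the 18 copies the sgRNA matches was not searched either. Across the genome, reads of LTR5_Hs were 18.6 ± 0.444 CPM in DE_ctl and 12.4 ± 1.13 in DE_CRISPRi (SD, n = 3 each). In FG_ctl they were 8.99 ± 0.925 and in FG_CRISPRi 7.49 ± 3.37 (n = 2 each), and overlapped. Reads of LTR5B were 5.36 ± 0.373 CPM in DE_ctl and 2.58 ± 0.815 in DE_CRISPRi, and 11.0 ± 3.04 in FG_ctl and 5.17 ± 1.82 in FG_CRISPRi, without overlap in either tissue. Without integrants that overlap exons, LTR5B was 2.03 ± 0.203 CPM in DE_ctl and 1.77 ± 0.588 in DE_CRISPRi, and overlapped. In foregut it was then 5.61 ± 1.155 and 2.33 ± 0.199, without overlap. LTR5_Hs was then 10.5 ± 0.599 in DE_ctl and 7.85 ± 1.36 in DE_CRISPRi, without overlap, and overlapped in foregut. No test was made of these levels.

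In endoderm, none of the 27 genes tested was called with the sgRNA, in either direction. Over 20407 genes, 0.00490% were called higher and 0.0294% lower. At an unadjusted p under 0.05, 1 gene of the array was lower, ZNF90, and none higher, where 2.52% of all genes were lower and 2.66% higher. ZNF90 had 21.5, 18.4 and 16.4 CPM in DE_ctl and 7.85, 10.9 and 12.5 in DE_CRISPRi. All 3 libraries with the sgRNA were below all 3 without it, with a log2 fold change of -0.83 (SE 0.23) that failed correction (edgeR adjusted p = 0.467, 0.0776 to 1 over the alternatives). ZNF730 overlapped between the groups, with 12.7, 5.02 and 4.5 CPM in DE_ctl and 4.55, 7.22 and 6.81 in DE_CRISPRi (log2 fold change -0.23, SE 0.37), and this value turned to 0.41 without the first DE_ctl library. ZNF93 overlapped too, at 18.3, 23.5 and 23.4 CPM in DE_CRISPRi (log2 fold change -0.17, SE 0.20).

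In foregut, none of 28 genes was called either (0.0499% of 20044 genes higher and 0.115% lower), and 2 were lower at an unadjusted p under 0.05, ZNF90 and ZNF730, with none higher (1.98% of all genes lower and 1.51% higher). ZNF90 had 5.85 and 5.93 CPM in FG_ctl, and 1.41 and 0 in FG_CRISPRi, with no overlap (log2 fold change -3.04, SE 1.08, edgeR adjusted p = 0.704). Without the second FG_CRISPRi library the log2 fold change was -2.06 (adjusted p = 0.600). Without the first, the remaining library is at 0 and the adjusted p was 2.67e-06, where the lone library is assumed to vary like those of FG_ctl. ZNF730 had 1.59 and 1.62 CPM in FG_ctl and no read in either FG_CRISPRi library. The fall of ZNF730 did not pass (log2 fold change -8.60, SE 3.68, edgeR adjusted p = 0.9996). Taking 3 reads per library as the limit gives a 13.37-fold fall, but this is no bound. Low counts were rare in the foregut libraries, and ZNF90 had 39 reads in 1 FG_CRISPRi library and 0 in the other. ZNF730 was called when all 12 libraries shared 1 fit (adjusted p = 0.00185). ZNF93 was at 3.48 and 3.71 CPM against 6.27 and 4.21, without overlap, and the difference did not pass (log2 fold change -0.55, SE 0.80, edgeR adjusted p = 0.9996).

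A marker of each of 2 cell type lists was called lower in the same foregut comparison. PDX1, a foregut and pancreatic factor, was at 25.9 ± 1.66 CPM in FG_ctl and 5.26 ± 3.49 in FG_CRISPRi (SD, n = 2 each, log2 fold change -2.30, edgeR adjusted p = 0.00218). CDX2, listed among extraembryonic markers and also known from the hindgut, was at 18.4 ± 8.59 and 2.71 ± 1.48 CPM (log2 fold change -2.77, edgeR adjusted p = 0.000992). These were 1 of 7 foregut and 1 of 4 extraembryonic markers, and no other member of the lists was called. The summed level of the foregut list was 1893 to 2224 CPM in FG_ctl, with none at 0. In FG_CRISPRi it was 1715 to 2184 CPM, with none at 0. Most of this sum was TTR (1747 ± 293 and 1742 ± 349 CPM), so it hardly reflects the other markers. Of the 7 log2 fold changes, 6 were negative and 1 positive (median -0.50). The summed level of the extraembryonic list was 93.2 to 120.4 CPM in FG_ctl, with none at 0. In FG_CRISPRi it was 108 to 109.3 CPM, with 1 gene at 0. Its largest part was KRT7 (63.4 ± 36.6 and 89.25 ± 11.1 CPM). Of the 4 log2 fold changes, 3 were negative and 1 positive. The part of these marker genes in the values of ZNF90 and ZNF730 was not tested.

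At an unadjusted p under 0.05, 1 of 27 genes was lower in endoderm and 2 of 28 in foregut. The shares of all genes were 2.52% and 1.98%. Neither ZNF90 nor ZNF730 passed correction in these fits, and both are among the 3 that hold a copy within their GENCODE body. Whether the copies had a part in these changes was not tested. For the genes that hold a copy, ZNF90, ZNF730 and ZNF93, the log2 fold changes were -0.83, -0.23 and -0.17 in endoderm. In foregut they were -3.04, -8.60 and -0.55, with ZNF730 without reads in FG_CRISPRi. Of the genes that hold none, 24 were tested in endoderm (median -0.09) and 25 in foregut (median -0.19), and 0 had an unadjusted p under 0.05. Within 100 kb but without a copy, the medians were -0.22 and -0.19, and beyond 100 kb -0.07 and -0.30. Of the other protein-coding genes that hold a copy, 32 of 261 were lower and 1 higher at an unadjusted p under 0.05 in endoderm, and 20 of 256 lower and 2 higher in foregut. In 19q13.41, with its density of LTR5B, 18 of 37 ZNF genes tested were lower in endoderm and 10 of 36 in foregut at that threshold, and none higher.

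The difference between the sgRNA effects in the 2 tissues was tested directly as an interaction. It passed for 1 of 28 genes, ZNF730, in the direction of a larger fall in foregut (edgeR adjusted p = 0.0349), where 0.141% of 22708 genes passed lower and 0.0528% higher. The fitted difference, -7.97 on the log2 scale, depends on the 2 libraries at 0 and is no measure of size. Its adjusted p was 0.0357 without the first DE_ctl library and 0.0197 without the first FG_CRISPRi library. Without any 1 of the other 8 libraries it lay between 0.0506 and 0.0876 and did not pass, nor did it under limma voom (0.0505) or with the replicate number as a block within tissue (0.278). At an unadjusted p under 0.05, ZNF90 and ZNF66 were also lower and ZNF430 higher (adjusted p of 0.581, 0.456 and 0.579), beside 4.85% of all genes lower and 3.38% higher.

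The partners of KRAB zinc finger proteins were examined as a list of 19 genes of the silencing pathway. Between hESC and DE_ctl, 1 was called, MORC2, a chromatin ATPase that works with the HUSH silencing complex, lower by a log2 fold change of -1.03 (edgeR adjusted p = 0.000703). By the adjusted p alone, TRIM28, CBX3, CBX5 and SMARCAD1 were also lower and SETDB1 and HDAC1 higher. With MORC2, 5 of 19 were lower and 2 higher by this rule, beside 18.3% and 19.6% of all genes. TRIM28, the common corepressor, had 1174 ± 21.5 CPM in hESC (SD, n = 2) and 716 ± 88.1 in DE_ctl (n = 3), a log2 fold change of -0.68 (edgeR adjusted p = 0.00562). SETDB1 went from 42.8 ± 0.443 to 61.3 ± 3.44 CPM (log2 fold change 0.55, edgeR adjusted p = 0.0263). In FG_ctl against DE_ctl, 3 were called, all lower: ATF7IP (-1.13), the partner of SETDB1, SMARCAD1 (-1.45), a chromatin remodeller, and DNMT1 (-1.33), the maintenance DNA methyltransferase. These are 3 of 19, beside 15.0% of all genes called lower in that comparison, and the 1 of 19 in endoderm stands beside 11.8%. With the sgRNA none was called in endoderm (18 tested) or foregut (19 tested).

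TE classes bound by ZNF91 and ZNF93 were summed over all integrants, as a description. Reads in SVA A to F were 44.8 ± 3.69 CPM in hESC (SD, n = 2), 51.0 ± 1.18 in DE_ctl (n = 3) and 120.2 ± 19.6 in FG_ctl (n = 2), so foregut was above both earlier groups, while ZNF91 was at 20.1, 13.1 and 12.5 CPM. L1PA3 and L1PA4 together were 66.1 ± 22.3 CPM in hESC, 140.4 ± 7.88 in DE_ctl and 74.2 ± 18.1 in FG_ctl, with endoderm highest, while ZNF93 was at 51.5, 24.8 and 5.24 CPM. These 2 subfamilies were a choice, and others had another order of means. L1PA2 was at 24.6, 25.4 and 33.0 CPM in the same groups, L1PA5 at 28.6, 32.1 and 42.9, L1PA6 at 30.8, 32.5 and 41.9, and L1PA7 at 27.6, 27.6 and 86.0, with the highest mean in foregut. Without integrants that overlap exons, L1PA3 and L1PA4 were 49.3 ± 12.3 CPM in hESC and 115.1 ± 6.59 in DE_ctl. With the sgRNA, SVA came to 50.9 ± 4.36 CPM in endoderm and 159.6 ± 62.3 in foregut, and L1PA3 and L1PA4 to 177.5 ± 29.8 and 83.5 ± 24.2. Unique reads miss the youngest copies most, and no relation across libraries was tested.

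The gastruloid nuclei gave the levels of the same genes in 1 preparation, without replicates. Of 3646 nuclei, 3422 passed limits of 1000 unique molecular identifiers (UMIs), 200 genes and a mitochondrial share of 25%, with a median of 16302 UMIs. Of the 37 genes, 28 (75.7%) were in the table, against 92.3% of ZNF genes of 19q13.41, 93.0% on the rest of chromosome 19 and 70.2% of protein-coding genes. The 9 without a row were ZNF208, ZNF257, ZNF676, ZNF729, ZNF492, ZNF99, ZNF723, ZNF728 and ZNF726. In the silent stretch, ZNF98 alone had UMIs, 54 in all. Within thinned nuclei (3197, each reduced to 5000 UMIs) it was found in 0.563% (exact binomial 95% interval 0.334 to 0.888%). No cell type that should lack these genes was available to measure the background of free RNA, so a share this low is not read as expression.

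ZNF730 was the highest, with 8248 UMIs (139.9 CPM, exact Poisson 95% interval 136.9 to 142.9) and found in 45.2% of thinned nuclei (43.5 to 46.9%), or 75.9% without thinning. It was followed by ZNF714 (6596 UMIs, 39.6%), ZNF43 (5866, 36.9%), ZNF254 (5234, 35.9%) and ZNF738 (4121, 28.4%). ZNF91 had 4113 UMIs (29.2% of nuclei) and ZNF93 1618 (12.8%). In bulk, ZNF93 was above ZNF91 in hESC (51.5 and 20.1 CPM) and DE_ctl (24.8 and 13.1), and below it in FG_ctl (5.24 and 12.5). Nuclear UMIs and bulk reads are unlike measures, and neither is scaled for gene length here, so these orders are not directly comparable. ZNF506, nearly silent in bulk endoderm, had 204 UMIs (1.88%). The median share over the 28 genes was 13.2%, against 7.26% over all genes of the table. Intervals cover counting error only.

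Nuclei were grouped into 11 clusters without use of the 37 genes, and the summed level of the genes differed between them. It was lowest in cluster 1 (496 nuclei), at 722.8 CPM (706.9 to 738.9), and highest in cluster 4 (417 nuclei), at 1639 CPM (1606 to 1673), a ratio of 2.27. Cluster 1 was axial-mesoderm-like, with CHRD, NOTO, TBXT, SHH and FOXA2 at their highest, as in the node and notochord. Cluster 4 was led by EDNRA, IGFBP5 and ZIC1, with high PAX3 and TWIST1, genes of paraxial mesoderm, and was not named. Most other clusters fell between 1091 and 1496 CPM, and clusters 6 and 10, the first of low depth (median of 6649 UMIs) and the second of 33 nuclei, had 848.1 and 859.9.

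Of 25 genes with at least 100 UMIs in the 2 clusters, 23 had an interval in cluster 4 above that in cluster 1 and none below, a direction that the choice of the lowest and highest clusters favours. The ratio ranged from 1.24 for ZNF724 to 23.7 for ZNF626, with a median of 2.34. After ZNF626 the ratio was highest for ZNF737 (9.32), ZNF253 (8.97) and ZNF90 (7.19). ZNF626 was found in 0.636% of thinned nuclei in cluster 1 (exact binomial 95% interval 0.131 to 1.85%) and in 25.4% in cluster 4 (21.2 to 30%). ZNF90 was found in 3.18% and 28.2%, ZNF253 in 3.39% and 23.7%, and ZNF93 in 5.72% and 19.7%. ZNF91 was found in 25.4% and 36.9%, a ratio in CPM of 1.37.

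The ratio of the highest to the lowest cluster, each list taken at its own extremes, was 2.27 for the 37 genes, 1.77 for ZNF genes of 19q13.41, 1.71 for those on the rest of chromosome 19 and 1.72 for those on other chromosomes. Between clusters 4 and 1, picked by the 37 genes, it was 1.44 for 19q13.41, 1.31 for the rest of chromosome 19 and 1.45 for other chromosomes, and the difference was not tested. Clusters 1 and 4 differed in median depth (20967 and 13025 UMIs) and mitochondrial share (17.4% and 15.4%), whose part in the levels was not tested. Cells are not replicates, and with 1 preparation no test of clusters was made.

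**Figure D1:**
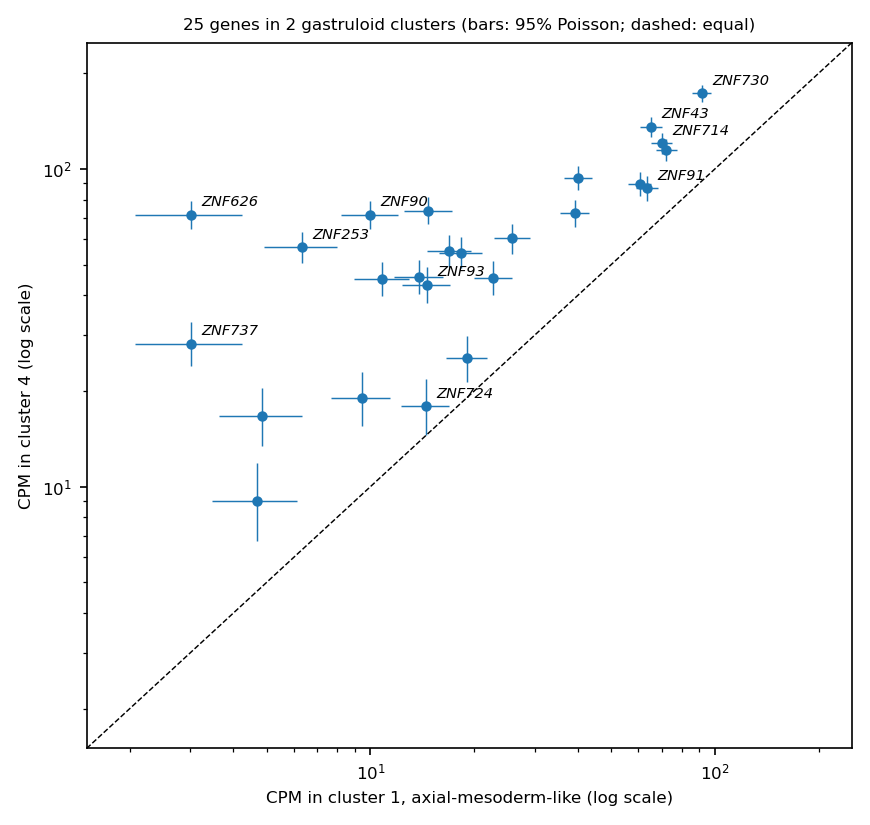
CPM of 25 genes in cluster 1 (x axis) and cluster 4 (y axis) of the gastruloid nuclei, both on log scales, with exact Poisson 95% intervals and a dashed line of equality. All 25 points lie above the line, ZNF626 farthest from it (23.7-fold) and ZNF724 nearest (1.24-fold).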

How the data were processed

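Bulk counts were deposited by the authors as whole reads per gene and per TE integrant (hg19), from stranded mRNA libraries aligned with HISAT2 and counted with featureCounts over uniquely mapped reads. The counter's strand setting is not given in the sources used here, so overlapping, antisense and paralogous genes are uncertain. The authors also deposited UMI counts and peaks of the gastruloid nuclei (GRCh38, Cell Ranger).

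Genes were placed with GENCODE (GRCh37). Groups came from the sample titles. Each comparison was fitted with the quasi-likelihood test of edgeR 4.0.16 (R 4.3.3) with TMM factors on genes with at least 3 reads in 1 library, with calls at a fold above 2 and a p below 0.05 after Benjamini-Hochberg adjustment. Alternatives used DESeq2 1.42.0, limma 3.58.1 (voom), other factors, filters and sample sets. The fits were tested on simulated data. Nuclei were clustered with scanpy 1.11.5 (2000 variable genes without the 37 genes, 30 principal components, Leiden resolution 0.5), and no doublet caller was run. Replicate numbers were not taken to pair the samples, and whether any samples are paired is not known.

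Named genes were ZNF91 and ZNF93, the 5 largest rises and falls per comparison with an unadjusted p under 0.05 and a mean of at least 1 CPM, genes within 100 kb of an LTR5 copy, the 3 highest and lowest in hESC, genes without reads, the 5 highest in nuclei and the silencing list. ZNF506, ZNF66 and ZNF626, among others, were singled out after their values were seen. The members and lists were chosen with earlier results of these data known. Sequences of the LTR5 copies are not reported here.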

Additional observations from a re-analysis of the deposited data

Results flagged for a closer look

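The sgRNA effect on ZNF730 differed between the tissues in the test of the interaction, with a fitted foregut minus endoderm difference of -7.97 on the log2 scale (edgeR adjusted p = 0.0349). Both FG_CRISPRi libraries were at 0 reads and both FG_ctl libraries near 1.6 CPM, while the endoderm groups overlapped (7.41 ± 4.60 CPM in DE_ctl and 6.19 ± 1.44 in DE_CRISPRi, SD, n = 3 each). The size of the fitted value depends on the prior count and is no bound. The call was lost under limma voom (adjusted p = 0.0505), with the replicate number as a block within tissue (adjusted p = 0.278) and without any 1 of 8 of the 10 libraries (adjusted p from 0.0506 to 0.0876).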

How the results depend on the processing

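Of 535 recomputed values, 474 kept their direction and side of the threshold or moved little. The count of 5 genes between hESC and DE_ctl ranged from 3 to 9 when 1 library was left out, and was 10 by the adjusted p alone and 11 by an unadjusted p under 0.05. With the sgRNA in endoderm the count of 0 became 1 by an unadjusted p. In foregut the count of 0 became 2 by an unadjusted p and 1 with all 12 libraries in 1 fit, and ranged from 0 to 1 when 1 library was left out, with a median from -0.548 to -0.0712. The interaction count of 1 became 0 under limma voom (ZNF730 adjusted p = 0.0505) and 0 with the replicate block within tissue (adjusted p = 0.278), and ranged from 0 to 2 when 1 library was left out. With the replicate block the counts of the other comparisons were 5, 0, 0 and 9, but between hESC and DE_ctl ZNF100 lost its call (-0.96) and ZNF85 gained one (-1.04). The correlation of same-numbered deviations was -0.18 in foregut, and the crossed pairing, added after seeing the data, called 74 of 20044 genes. Without a block, 10 were called higher and 23 lower, and whether the foregut samples are paired is not known.

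Uncalled values that changed sign were those of ZNF91 with the sgRNA in endoderm, -0.0047 under limma voom and between -0.17 and 0.30 over the alternatives (-0.031 and -0.17 without the second and last DE_CRISPRi library, -0.096 and -0.078 without the second and last DE_ctl library), and that of ZNF730 there, 0.41 without the first DE_ctl library (-0.48 without the last). ZNF91 was 0.047 in foregut and 0.045 in the interaction without the first FG_CRISPRi library, and -0.69 and -0.73 without the second. Between foregut and endoderm ZNF91 was 0.014 under the stricter filter, 0.070 without the second FG_ctl library and 0.23 and -0.19 without the first and last DE_ctl library. The median distance was 116.9 kb from the start of the gene, and the median share of nuclei was 5.63% thinned to 2000 UMIs and 33.8% without thinning. The cause was not tested. The LTR5 copies had too few reads for a test, and 2 foregut libraries per group limit the sgRNA comparison there.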
